A study of Mus musculus with 22 samples.

Results

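The genes described here are the G1 cyclins, the CDK inhibitors and the p53 pair: the D-type cyclins Ccnd1, Ccnd2 and Ccnd3, the E-type cyclins Ccne1 and Ccne2, the inhibitors Cdkn1a (p21), Cdkn1b (p27) and Cdkn2a (p16Ink4a and p19Arf), Trp53 (p53) and Mdm2. They were chosen by symbol, and each symbol matched 1 gene, so that they made up 10 of the 34489 genes counted. In G1, D-type cyclins activate Cdk4 and Cdk6 and E-type cyclins activate Cdk2, and these kinases phosphorylate the retinoblastoma protein and its relatives, which frees E2F factors to switch on S-phase genes. p21 and p27 hold back the cyclin-bound kinases, p16Ink4a blocks Cdk4 and Cdk6, and p53, a stress-activated transcription factor, induces both Cdkn1a and Mdm2, whose protein in turn sends p53 to destruction unless p19Arf restrains it. Mouse embryonic stem cells grown in serum are known for a short G1 phase, whereas the naive and reverted cells here were grown in 2iL (described below).

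The study asked whether activators of the kinase AMPK return primed mouse epiblast stem cells (mEpiSCs), which resemble the epiblast after implantation, to the naive state of embryonic stem cells (mESCs). Bulk polyA RNA sequencing gave read counts per gene in 22 libraries. The naive reference was 1 library of Rex1-GFP mESCs (strain 129/Ola), which carry a GFP reporter driven by the Rex1 promoter and were kept in 2iL, a mixture of the MEK inhibitor PD0325901, the GSK3 inhibitor CHIR99021 and LIF. The primed group was 2 libraries of mEpiSCs in FGF2 and Activin A. One was the Oct4GIP line (129/Ola), grown on fibronectin, which carries an eGFP and puromycin resistance transgene driven by the Oct4 promoter. The other was the 129/MSM line, derived from 129X1/SvJ females mated with MSM/Ms males and grown on feeders of mouse embryonic fibroblasts (MEFs). By the paper's methods these lines were kept in different base media, and they are listed as XX (Oct4GIP) and XY (129/MSM). The culture group was 8 libraries of Oct4GIP cells on mitomycin-treated MEFs in Basal medium alone or with 2iL, AICAR or AICAR+LIF, with 1 library of each at day 8 (d8) and at day 16 (d16). These were whole cultures, so feeder RNA was not separated from that of the treated cells. The early reverted group was 4 Oct4GIP libraries, from AICAR or AICAR+LIF cultures moved at d16 to 2iL for 2 passages (d16+2p) or 3 passages (d16+3p). The late reverted group was 7 libraries after 10 passages in 2iL (d16+10p): 5 Oct4GIP libraries, from AICAR, AICAR+LIF, A769662, A769662+LIF or metformin+LIF cultures, and 2 from 129/MSM, treated with AICAR or AICAR+LIF. A769662 and metformin are other AMPK activators. Every library was the only one of its exact condition, so a test between groups measured the spread among libraries of a state, across activators and lines.

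Library totals ran from 438771 counts (AICAR+LIF d8) to 5290163 counts (Basal d16), and the next lowest were AICAR d8 with 956357 and AICAR d16+10p of Oct4GIP with 1689495. Levels are in CPM, a gene's counts relative to the total of its library, with totals scaled by the TMM factors of edgeR. A gene with 0 counts could have gone unseen at up to 3 counts, which sets floors from 0.565 CPM (Basal d16) up to 5.93 CPM (AICAR+LIF d8), and these cover counting error only. Differences were tested with edgeR quasi-likelihood fits over all genes, and a gene was called at a Benjamini-Hochberg adjusted p under 0.05. The standard error (SE) of each log2 fold change is given beside it. The comparisons share libraries and are not independent of each other.

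Marker genes were checked against the labels before the members were compared. The summed level of 6 naive markers (Zfp42, Esrrb, Klf2, Nr5a2, Tfcp2l1 and Dppa5a) was 4059 CPM in naive mESCs, 17.3 and 24.6 CPM in the primed libraries of Oct4GIP and 129/MSM, 2865 to 3290 CPM in early reverted and 3410 to 4871 CPM in late reverted cells. Thus the reverted libraries resembled naive cells in these genes, as labelled. The sum of 6 primed markers (Fgf5, Otx2, Dnmt3b, T, Foxa2 and Eomes) was 374 CPM in primed Oct4GIP and 1826 CPM in primed 129/MSM, 436 to 596 CPM in early reverted, 70.9 to 235 CPM in late reverted and 68.3 CPM in naive cells. The sum in the early reverted libraries was above that of primed Oct4GIP, but Dnmt3b supplied most of it, with 419 CPM or more against 238 CPM in primed Oct4GIP. In the cultures of d16 the sum was 124 (Basal), 16.4 (2iL), 149 (AICAR) and 161 CPM (AICAR+LIF). Fgf5 had 0 counts in naive cells.

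The cultures had low sums of both lists, 1.89 to 21.2 CPM for the naive and 16.4 to 161 CPM for the primed markers. Of the genes shared by both states, Pou5f1 (0.754 to 35.6 CPM against 461 to 818 CPM in primed cells) and Nanog (1.45 to 75.2 against 60.3 to 243 CPM) were called lower in cultures than in primed cells, and Sox2 (99.0 to 312 against 52.4 to 58.8 CPM) was called higher. The sum of 12 fibroblast markers was 5642 to 7252 CPM at d8 and 8186 to 54950 CPM at d16, and all 12 genes were counted in every culture. The highest sum was in 2iL d16, where Col3a1 led with 17420 CPM. In the 11 reverted libraries the fibroblast sum was 1778 to 3290 CPM, most of it Fn1, while S100a4 and Twist2 had 0 counts in all of them. Col1a1 was 1.09 to 44.85 CPM and Col1a2 0 to 29.6 CPM in early reverted cells, against at most 3.77 and 3.57 CPM in late ones. The sum of 6 neural markers was 926 to 4134 CPM at d8 and 491 to 935 CPM at d16, against 59.6 to 362 CPM in naive, primed and reverted libraries. Muscle markers summed to 5.28 to 245 CPM in cultures, endothelial markers to 3.96 to 238 CPM and blood markers to 0.802 to 5.93 CPM. Genes of S phase to mitosis (17 genes, including Top2a, Mcm2 and Ccnb1) summed to 3398 CPM in primed Oct4GIP, 3009 CPM in primed 129/MSM, 4411 to 5341 CPM in the reverted libraries and 4647 CPM in naive cells, but to 1610 to 2411 CPM at d8 and 618 to 1511 CPM at d16. In whole cultures a lower level from fewer cells of a type cannot be told apart from less RNA per cell. These marker levels moved with every comparison that includes cultures, and their part in the results below was not tested.

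In late reverted cells compared with primed cells, 3 of 10 members were higher (Ccnd3, Ccne1 and Trp53) where 16.7% of all 18739 genes tested were called higher, and 2 were lower (Ccnd2 and Cdkn1b) where 19.9% were called lower. The shares are near the background, so it is the named genes rather than their number that carry the comparison. From early to late reverted cells, 2 members rose (Cdkn1b and Cdkn2a) against a background of 4.75%, and 0 fell against 4.61%. In the cultures compared with primed cells, 1 member was higher (Ccnd3, background 18.1%) and 3 were lower (Ccne1, Trp53 and Mdm2, background 19.4%). Between reverted cells and cultures the members differed widely, as did the genome: 4 were higher in reverted cells (Ccne1, Ccne2, Trp53 and Mdm2, background 36.7%) and 3 lower (Ccnd2, Cdkn1b and Cdkn2a, background 39.5%). Within the cultures, AICAR raised 1 member (Ccnd2), where 3.39% of 15473 genes were called higher and 5.51% lower. The balance of this background turned with the scaling: 38.1% of the genes called were higher, against 54.4% without normalization factors. Between d8 and d16, 1 member rose (Ccnd3, background 17.5%) and 2 fell (Ccnd1 and Mdm2, background 12.7%). All 10 members passed the filter on low counts in both fits.

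The median log2 fold change over the 10 members, beside that over all genes tested, was 0.44 against -0.01 for late reverted and primed cells, -0.14 against 0.00 for late and early reverted cells, 0.11 against 0.04 for cultures and primed cells, 0.42 against -0.08 for reverted cells and cultures, 0.64 against -0.03 for AICAR and -0.28 against 0.00 for the day. The members did not move as a block, and each is described in turn.

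**Figure D1:**
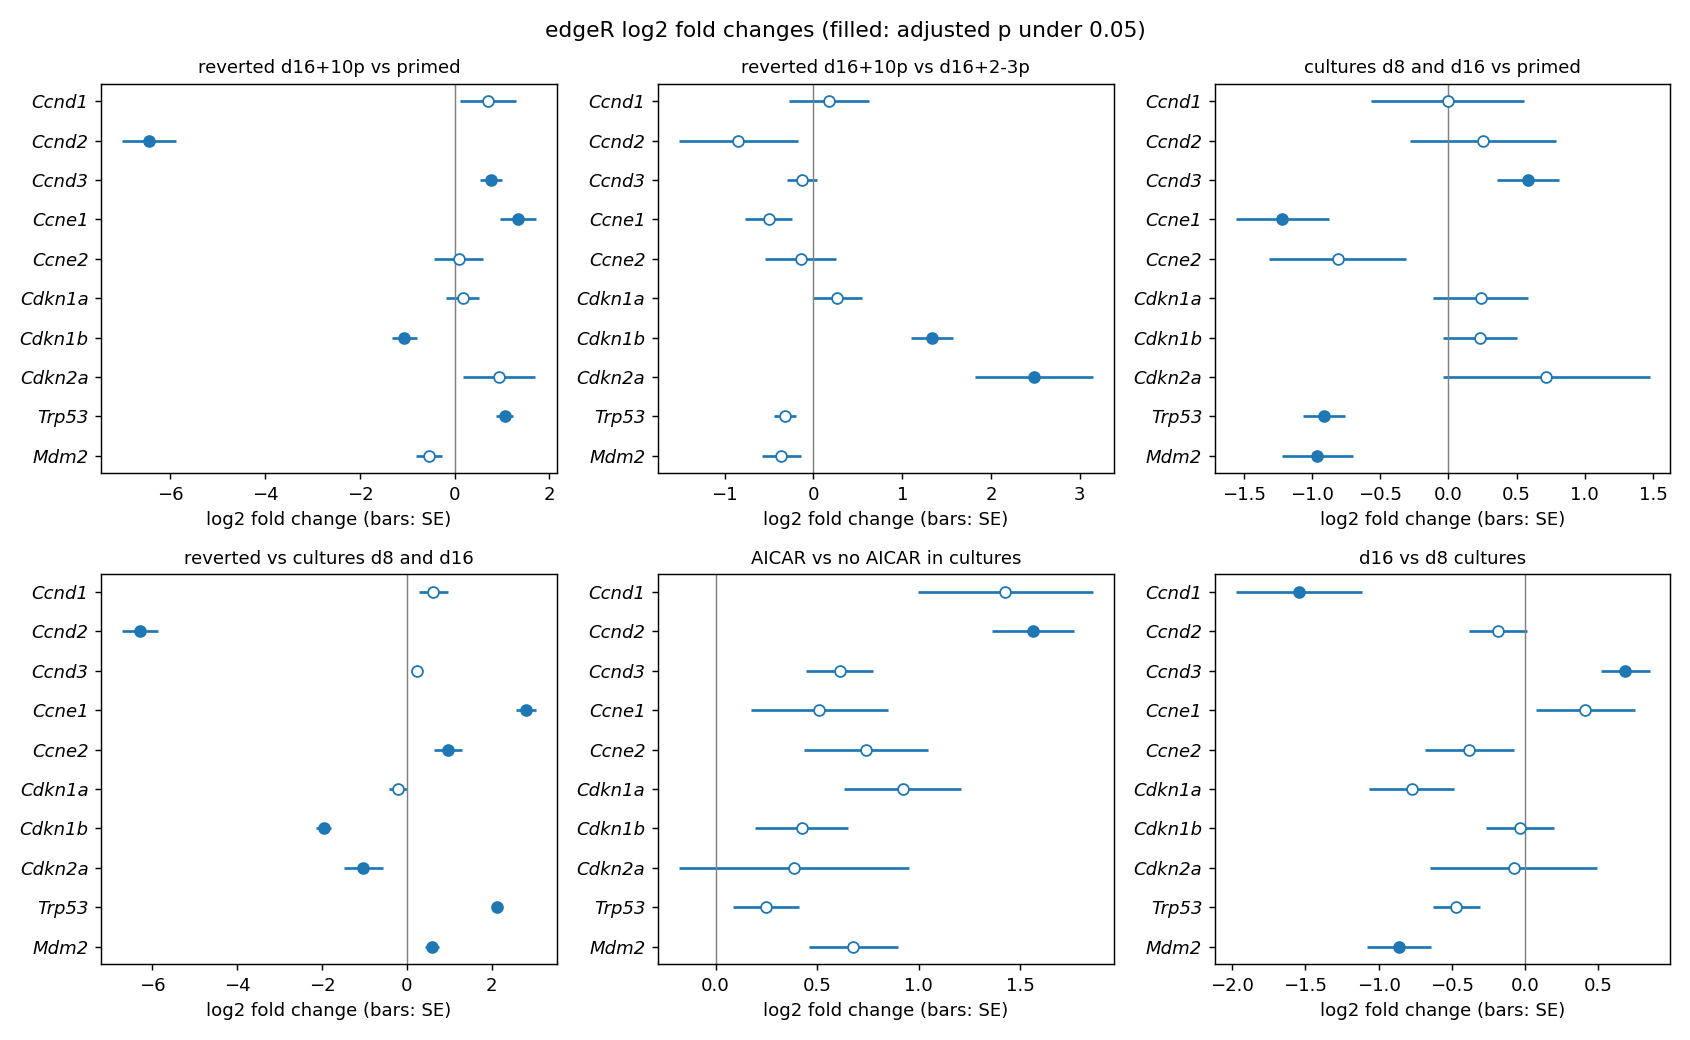
Log2 fold change of the 10 members (vertical axis) in each of the 6 comparisons (panels, horizontal axis in log2 units, each panel with its own range). Points are edgeR estimates and bars their standard errors, with called genes filled. Ccnd2 lies at -6.46 against primed cells and at -6.29 against cultures, whereas Cdkn1a was called in none of the 6 comparisons.

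Ccnd2 (ENSMUSG00000000184, chr6:127125162-127152193, minus strand, GRCm38) encodes cyclin D2. Its level was 248 CPM in primed Oct4GIP and 196 CPM in primed 129/MSM. The early reverted libraries had 7.99 CPM (AICAR d16+2p), 6.84 CPM (AICAR+LIF d16+2p), 1.09 CPM (AICAR d16+3p) and 1.76 CPM (AICAR+LIF d16+3p). The 7 late reverted libraries had 0.392 to 4.47 CPM with a median of 3.08 CPM, from 1 to 15 counts each. Naive mESCs had 0.621 CPM, from 2 counts. Thus every naive and reverted library lay far under every primed one, with no overlap. The primed mean was 93.9 times the late reverted mean, with a log2 fold change of -6.46 (SE 0.57, adjusted p = 3.78e-08). Fitted within each line, the change was -6.48 (SE 0.72) in Oct4GIP and -6.73 (SE 1.07) in 129/MSM. Ccnd2 was not lost in the cultures: at d8 it was 184 (Basal), 123 (2iL), 413 (AICAR) and 392 CPM (AICAR+LIF), and at d16 it was 147, 100, 316 and 458 CPM in the same order. These values spanned the primed ones, and the reverted cells were lower than the cultures by a log2 fold change of -6.29 (SE 0.43, adjusted p = 4.51e-11). The fall from early to late reverted cells, -0.85 (SE 0.67, adjusted p = 0.505), was within the spread between libraries.

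Ccnd1 (ENSMUSG00000070348, chr7:144929931-144939925, minus strand) encodes cyclin D1. The primed libraries were far apart in it, with 30.9 CPM in Oct4GIP and 164 CPM in 129/MSM. The early reverted libraries had 124, 151, 112 and 177 CPM, the late ones 104 to 213 CPM with a median of 164 CPM, and the naive library 201 CPM. Late reverted and primed cells thus overlapped, and the log2 fold change of 0.70 (SE 0.60, adjusted p = 0.385) was not called. Within Oct4GIP alone Ccnd1 rose by 2.54 (SE 0.83, adjusted p = 0.0253), whereas in 129/MSM the change was -0.62 (SE 0.73, adjusted p = 0.618). The difference between the lines, 3.16 (SE 1.07), had an adjusted p of 0.146 and is not shown. These fits within a line were added after the data were seen, and each rests on 1 primed library that is assumed to vary like the other groups. In the cultures Ccnd1 was 71.3 (Basal), 153 (2iL), 259 (AICAR) and 127 CPM (AICAR+LIF) at d8, followed at d16 by 37.5, 12.0, 82.4 and 119 CPM. Each treatment was lower at d16 than at d8, and the fall was called (log2 fold change -1.54, SE 0.43, adjusted p = 0.0284). It was no longer called without 2iL d8 (-1.15), AICAR d8 (-1.46) or AICAR d16 (-1.52), nor with the 4 treatments as a block (-1.52), after thinning (-1.14) or without a covariate (-1.30).

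Ccnd3 (ENSMUSG00000034165, chr17:47505051-47599691, plus strand) encodes cyclin D3. It was 120 CPM in primed Oct4GIP and 95.4 CPM in primed 129/MSM, and 174, 171, 204 and 245 CPM in the early reverted libraries. The late reverted libraries had 153 to 202 CPM with a median of 187 CPM, and naive cells 160 CPM. All reverted libraries were above both primed ones, by a log2 fold change of 0.76 in the late group (SE 0.23, adjusted p = 0.0133), which was no longer called without primed 129/MSM (0.60). Within each line it was not called, with 0.61 (SE 0.32, adjusted p = 0.161) in Oct4GIP and 0.93 (SE 0.35, adjusted p = 0.0779) in 129/MSM. In the cultures Ccnd3 was 99.9 (Basal), 106 (2iL), 164 (AICAR) and 140 CPM (AICAR+LIF) at d8, followed at d16 by 134, 196, 222 and 269 CPM. Each treatment rose with time (log2 fold change 0.68, SE 0.17, adjusted p = 0.0176), a call lost without Basal d8 (0.66), 2iL d8 (0.72), AICAR d8 and AICAR+LIF d8 together (0.75) or a covariate (0.68). The excess of the cultures over primed cells (0.58, SE 0.23, adjusted p = 0.0473) lost its call when 1 of 7 of the 10 libraries was left out, with values of 0.38 to 0.75 over all 10. Those 7 were both primed libraries, 2iL d8, AICAR d8, AICAR+LIF d8, AICAR d16 and AICAR+LIF d16. It was also lost with limma voom (0.53), without a filter (0.52), without normalization factors (0.52), without the 3 libraries of lowest total (0.39) and with only the groups compared in the fit (0.52).

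The D-type cyclins were compared with each other after division by the length of their most counted transcript, 3740 bases for Ccnd1, 6330 for Ccnd2 and 1977 for Ccnd3. That Ccnd3 transcript took only 15.3% of the counts of its gene, and the 5 Ccnd3 transcripts with the most reads were 1977 to 2113 bases long. On this scale (CPM per kilobase) Ccnd2 made up 36.3% of the D-cyclin sum in primed Oct4GIP and 25.1% in primed 129/MSM, 13.4% to 37.1% in cultures, 0.0567% to 1.03% in reverted cells and 0.0727% in naive cells. Ccnd3 held 62.7% to 77.4% in reverted and 60.1% in naive cells, against 56.0% and 39.2% in the primed libraries. The sums themselves overlapped or lay close, from 108 and 123 CPM per kilobase in primed Oct4GIP and 129/MSM to 109 to 171 in reverted cells and 135 in naive cells. Reverted and naive cells thus carried D-type cyclin RNA that was nearly all Ccnd3 and Ccnd1. The sums in AICAR-treated cultures were 217 (AICAR d8), 167 (AICAR+LIF d8), 184 (AICAR d16) and 240 CPM per kilobase (AICAR+LIF d16), of which that of AICAR+LIF d8 lay within the range of reverted cells, and in the other cultures they were 98.6 to 118.

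**Figure D2:**
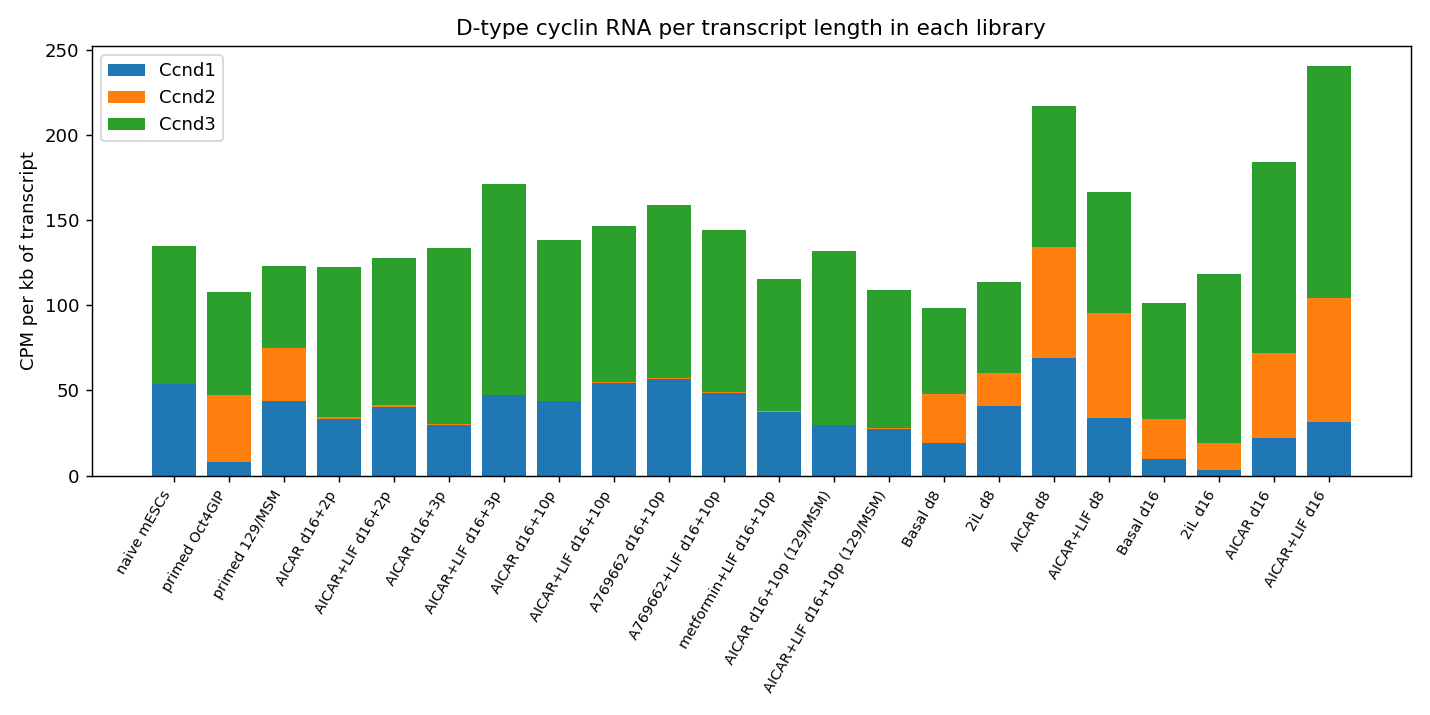
Levels of Ccnd1, Ccnd2 and Ccnd3 in CPM per kilobase of transcript (vertical axis), stacked for each of the 22 libraries (horizontal axis, in order of state). The Ccnd2 share is 25.1% and 36.3% in the primed libraries and at most 1.03% in the reverted ones.

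Ccne1 (ENSMUSG00000002068, chr7:38097984-38107534, minus strand) encodes cyclin E1. It was 14.3 CPM in primed Oct4GIP and 59.1 CPM in primed 129/MSM, 104, 133, 144 and 151 CPM in the early reverted libraries, and 78.9 to 112 CPM with a median of 93.3 CPM in the late ones. Naive cells had 86.6 CPM. Each reverted library was above both primed libraries, by a log2 fold change of 1.34 in the late group (SE 0.38, adjusted p = 0.00803). The primed libraries lay far apart, but that is 1 library against 1, and line, sex, substrate and base medium cannot be told apart. Without primed Oct4GIP the change was 0.66 and was not called. Fitted within each line it was 2.68 (SE 0.45) in Oct4GIP and 0.73 (SE 0.40) in 129/MSM. The difference between these changes, 1.95 (SE 0.56), was not called, so a change particular to a line is not shown. The cultures were lowest, with 7.96 (Basal), 18.7 (2iL), 16.1 (AICAR) and 9.89 CPM (AICAR+LIF) at d8, followed at d16 by 11.1, 16.4, 25.3 and 23.0 CPM. No culture reached a reverted library, and the reverted cells were higher by 2.81 (SE 0.24, adjusted p = 9.54e-10). Against primed cells the cultures were lower by a log2 fold change of -1.22 (SE 0.34, adjusted p = 0.00843), a call lost after thinning (-0.89) and with only the groups compared (-1.27), and without primed 129/MSM the value was 0.094. Primed Oct4GIP, the line the cultures came from, lay within their range.

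Ccne2 (ENSMUSG00000028212, chr4:11191351-11204779, plus strand), for cyclin E2, was low throughout. It was 2.57 CPM (7 counts) in primed Oct4GIP and 27.2 CPM in primed 129/MSM, 19.8, 20.1, 21.4 and 8.79 CPM in early reverted, 9.86 to 23.9 CPM with a median of 15.6 CPM in late reverted and 16.5 CPM in naive cells. The primed lines bracketed all the reverted libraries, and the late change of 0.08 (SE 0.52, adjusted p = 0.929) was not called. The primed state had 1 library of each line, with 7 counts in Oct4GIP and 86 in 129/MSM. Within Oct4GIP Ccne2 rose by 2.39 (SE 0.64, adjusted p = 0.00763) and in 129/MSM the value was -0.35 (SE 0.51, adjusted p = 0.702), while the difference between these changes (2.74, SE 0.80) had an adjusted p of 0.0940. The cultures had 7.88 to 11.9 CPM at d8 and 5.09 to 13.4 CPM at d16, and overlapped only in part with the reverted cells, which were higher by 0.97 (SE 0.33, adjusted p = 0.0113), a call lost after thinning (0.84).

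**Figure D3:**
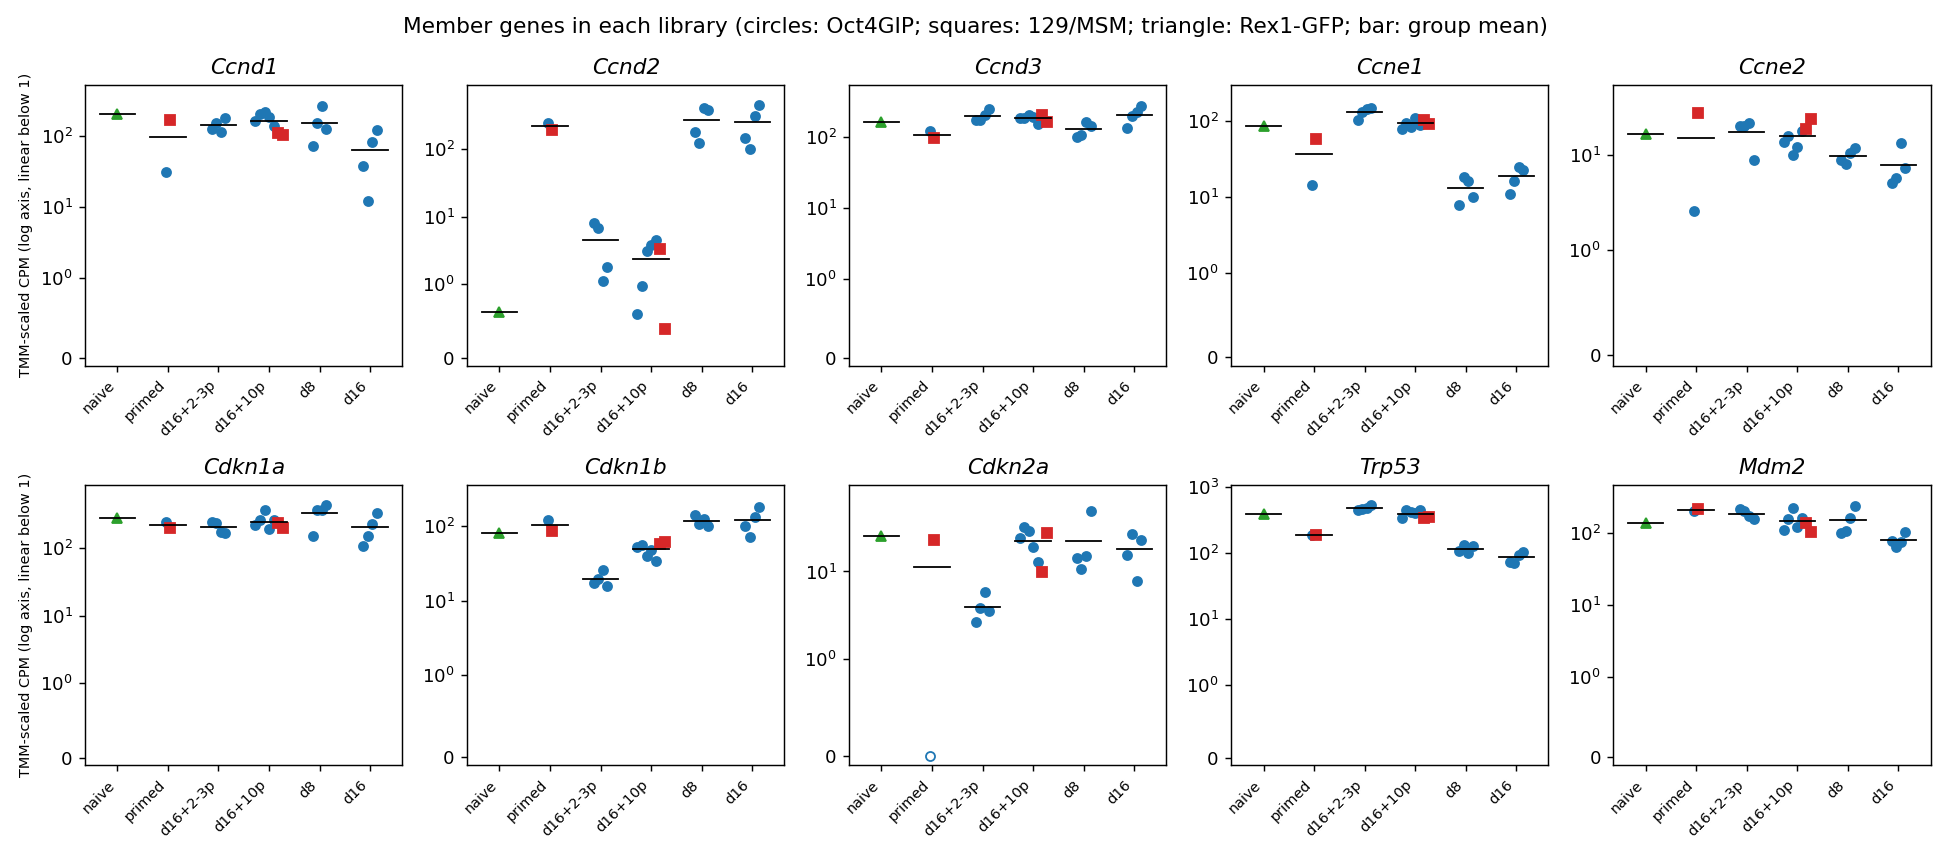
Level of each member (panels, vertical axis in CPM on a logarithmic axis that is linear below 1) in each of the 22 libraries, by group (horizontal axis). Circles are Oct4GIP, squares 129/MSM, the triangle Rex1-GFP, the open point a count of 0, and bars are group means. Ccnd2 falls from 196 and 248 CPM in primed cells to at most 7.99 CPM in reverted cells, and Trp53 lies at 337 CPM or more in every reverted library and at 188 CPM in both primed ones.

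Cdkn1b (ENSMUSG00000003031, chr6:134920401-134925513, plus strand) encodes p27. It was 121 CPM in primed Oct4GIP and 86.5 CPM in primed 129/MSM. In early reverted cells it was 17.2 (AICAR d16+2p), 19.8 (AICAR+LIF d16+2p), 26.1 (AICAR d16+3p) and 15.5 CPM (AICAR+LIF d16+3p). In late reverted cells it was 33.7 to 61.5 CPM with a median of 52.99 CPM, and in naive cells 81.6 CPM. The groups thus fell in an order without overlap: early reverted lowest, then late reverted, then naive and primed. The rise from early to late passage was called (log2 fold change 1.34, SE 0.24, adjusted p = 0.00122), and every late library exceeded every early one. Late reverted cells were below primed cells by a log2 fold change of -1.06 (SE 0.26, adjusted p = 0.0028), a call lost without primed Oct4GIP (-0.80). Fitted within each line, the change was -1.40 (SE 0.33) in Oct4GIP and -0.54 (SE 0.39) in 129/MSM. The difference between these changes, -0.85 (SE 0.53), was not called, so a change particular to a line is not shown. The cultures had 141 (Basal), 109 (2iL), 127 (AICAR) and 101 CPM (AICAR+LIF) at d8, followed at d16 by 102, 73.0, 135 and 183 CPM. All of them were above all reverted libraries, which were lower by a log2 fold change of -1.96 (SE 0.17, adjusted p = 1.21e-09).

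Cdkn1a (ENSMUSG00000023067, chr17:29090976-29100727, plus strand) encodes p21. It was 245 CPM in primed Oct4GIP, 200 CPM in primed 129/MSM, 248, 236, 174 and 171 CPM in early reverted, 196 to 367 CPM with a median of 235 CPM in late reverted and 279 CPM in naive cells. These ranges overlapped, and no comparison between states was called, with log2 fold changes of 0.17 (SE 0.35) for late reverted against primed cells and -0.20 (SE 0.21) for reverted cells against cultures. In the cultures the level was 153 (Basal), 375 (2iL), 371 (AICAR) and 441 CPM (AICAR+LIF) at d8, followed at d16 by 108, 152, 233 and 334 CPM. Basal medium alone gave the lowest value on each day. The difference with AICAR was 0.92 (SE 0.29, adjusted p = 0.0793) and the change with the day -0.77 (SE 0.29, adjusted p = 0.0728), both short of the threshold. The change with the day was called with the 4 treatments as a block (-0.72), without normalization factors (-0.91), without a filter (-0.73), after thinning (-0.80) and without Basal d8 (-0.95). The difference with AICAR was called by DESeq2 (0.92), without a filter (0.89), after thinning (1.01) and without 2iL d8 (1.26).

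Cdkn2a (ENSMUSG00000044303, chr4:89274471-89294653, minus strand) makes p16Ink4a and p19Arf from separate first exons. It had 0 counts in primed Oct4GIP, where 3 counts would be 1.10 CPM, and 22.7 CPM in primed 129/MSM. The early reverted libraries had 2.66, 3.80, 5.81 and 3.51 CPM, from 9 to 16 counts each. The late reverted libraries had 9.80 to 32.5 CPM with a median of 24.1 CPM, and naive cells 25.8 CPM. Late and early reverted cells did not overlap, and the rise was called (log2 fold change 2.48, SE 0.67, adjusted p = 0.0215), but not without AICAR d16+2p (2.33), AICAR+LIF d16+2p (2.47) or AICAR+LIF d16+3p (2.43), nor after thinning (2.10). Within Oct4GIP the mean of the 5 late reverted libraries, 23.5 CPM, was at least 21.3-fold higher than the floor of the primed library. Over both lines, the late change was 0.94 (SE 0.77, adjusted p = 0.368). It was called by limma voom (3.20), and it was -0.042 without primed Oct4GIP. Without primed 129/MSM the fitted value was 8.92. That fit has 1 primed library, with 0 counts, so only the floor limits the size of the change. The cultures had 14.1 (Basal), 10.8 (2iL), 15.2 (AICAR) and 49.4 CPM (AICAR+LIF) at d8, followed at d16 by 15.3, 26.9, 7.80 and 23.0 CPM. Reverted cells were lower than cultures by a log2 fold change of -1.02 (SE 0.46, adjusted p = 0.0494), at the edge of the threshold. This value averages early and late reverted cells, and only the early ones, with a mean of 3.95 CPM, lay below the cultures, whose means were 22.4 CPM at d8 and 18.2 CPM at d16, while the late mean was 22.1 CPM. The mean over all reverted libraries was 0.764 times that of the cultures. The groups overlapped, and this call was lost when any of 13 of the 19 libraries was left out, with values of -1.20 to -0.67, the last without AICAR+LIF d8. It was lost as well with limma voom (-0.79), without a filter (-0.96) and without the 3 libraries of lowest total (-0.63).

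Over all libraries, 388 counts were assigned to the p16Ink4a transcript (852 bases, first exon chr4:89281986-89282192) and 575 to the p19Arf transcript (895 bases, first exon chr4:89294334-89294653). The transcripts share 575 bases and have 277 and 320 of their own, and reads from the shared exons can be assigned to either. The p19Arf share was 67.5% in naive cells, 59.7% in primed 129/MSM, 40.0% to 68.8% in early reverted, 48.0% to 72.1% in late reverted cells and 43.6% to 63.0% in cultures. Reads were thus assigned to both transcripts in each library but primed Oct4GIP, which had none. Because of the shared bases, this does not show that both transcripts were present in a library.

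**Figure D4:**
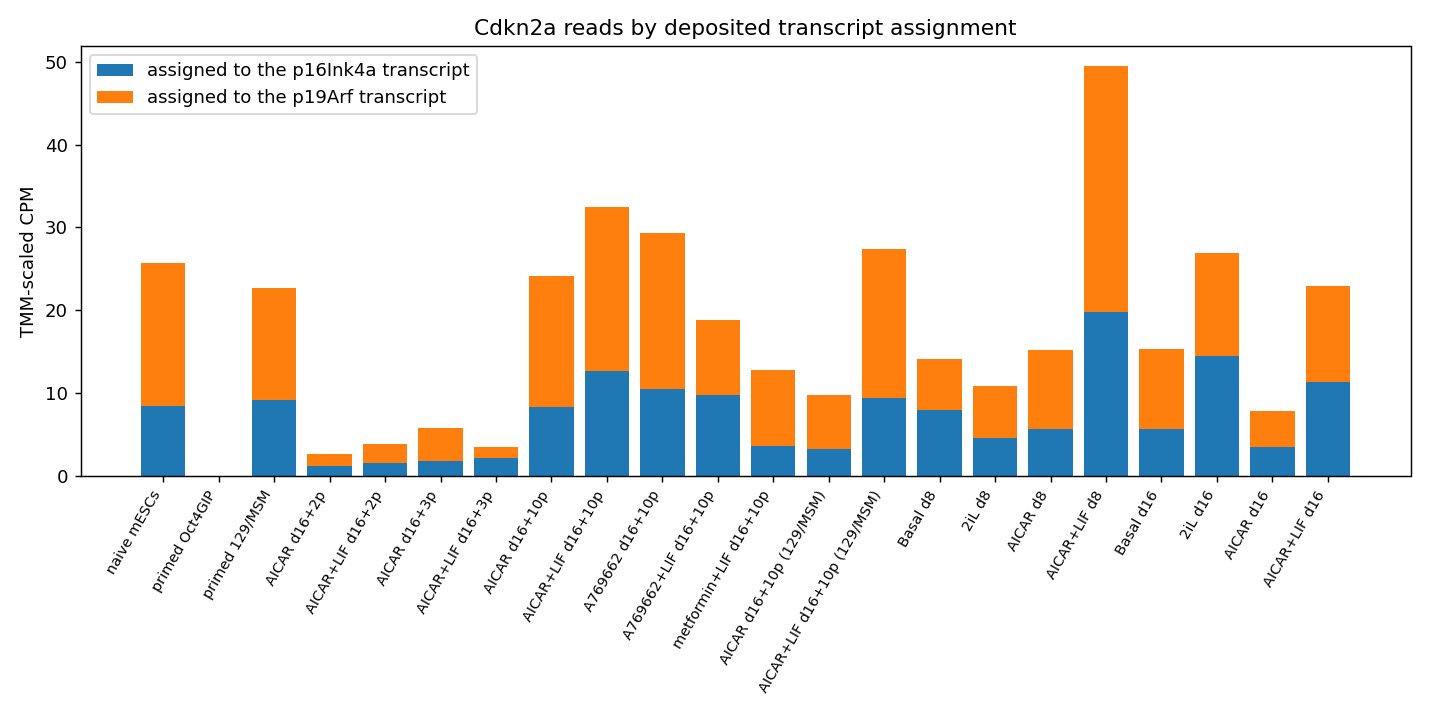
Reads assigned to the p16Ink4a and p19Arf transcripts of Cdkn2a, in CPM (vertical axis), in each of the 22 libraries (horizontal axis, in order of state). Both are at 0 in primed Oct4GIP and low in the 4 early reverted libraries, where at most 3.99 CPM were assigned to p19Arf. Reads from shared exons can be assigned to either.

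The upstream sequences of the Cdkn2a starts are shown because these starts separate the transcripts, and that of Cdkn1a because Cdkn1a is a classical p53 target. The table of RefSeq promoters used here (GRCm38.p6), which is not complete, had 10 entries for 7 of the 10 members, and Ccnd1, Ccnd2 and Ccne2 are only named. The 250 bases before each start were searched on both strands for TTTNNCGC (GCGNNAAA on the other strand), a core of E2F sites, and for CATGNNNNNNCATG, a pair of the cores of p53 sites. Printed bases stop before the first annotated exon, and matches are in capitals.

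Cdkn2a, start of p19Arf, chr4:89294654-89294869, minus strand: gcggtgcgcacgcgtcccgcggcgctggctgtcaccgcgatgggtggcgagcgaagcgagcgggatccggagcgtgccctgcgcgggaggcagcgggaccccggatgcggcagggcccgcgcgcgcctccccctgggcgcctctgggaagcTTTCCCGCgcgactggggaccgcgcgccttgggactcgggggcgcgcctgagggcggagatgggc
Cdkn2a, start of p16Ink4a, chr4:89282193-89282442, minus strand: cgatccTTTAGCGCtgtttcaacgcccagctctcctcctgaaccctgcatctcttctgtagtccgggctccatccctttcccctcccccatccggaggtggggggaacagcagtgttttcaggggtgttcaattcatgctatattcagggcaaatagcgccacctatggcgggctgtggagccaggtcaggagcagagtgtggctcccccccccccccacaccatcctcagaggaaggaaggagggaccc
Cdkn1a, distal start, chr17:29090729-29090975, plus strand: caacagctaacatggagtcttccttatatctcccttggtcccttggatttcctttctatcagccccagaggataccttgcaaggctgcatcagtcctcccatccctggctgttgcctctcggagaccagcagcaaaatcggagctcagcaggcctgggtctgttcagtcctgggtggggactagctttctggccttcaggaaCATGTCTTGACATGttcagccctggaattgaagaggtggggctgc

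The E2F letters stood in both Cdkn2a windows and in that of Mdm2, and in 4.28% of the 32851 promoters searched. The p53 letters stood in the distal Cdkn1a window and in 0.49% of all promoters. A match says only that these letters are present.

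Trp53 (ENSMUSG00000059552, chr11:69580359-69591873, plus strand) encodes p53. Both primed libraries had 188 CPM. The early reverted libraries had 457, 471, 483 and 545 CPM, the late ones 337 to 447 CPM with a median of 402 CPM, and naive cells 395 CPM. Every reverted library was far above both primed ones, and the late mean was 2.08 times the primed mean (log2 fold change 1.06, SE 0.18, adjusted p = 8.0e-05). Fitted within each line, each time against 1 primed library, the rise was 1.12 (SE 0.23) in Oct4GIP and 0.88 (SE 0.25) in 129/MSM. Late reverted libraries lay under the early ones without overlap, but the log2 fold change of -0.32 (SE 0.13, adjusted p = 0.12) was not called. DESeq2 called it (-0.35), as did the fit of only the groups compared (-0.32). The cultures were lowest, with 109 (Basal), 130 (2iL), 100.4 (AICAR) and 127 CPM (AICAR+LIF) at d8, followed at d16 by 72.4, 70.6, 94.6 and 105 CPM. They were below primed cells by a log2 fold change of -0.91 (SE 0.15, adjusted p = 0.000141) and reverted cells were above them by 2.13 (SE 0.10, adjusted p = 3.41e-13), in both cases without overlap.

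Mdm2 (ENSMUSG00000020184, chr10:117688875-117710758, minus strand) is both a target and a repressor of p53. It was 205 CPM in primed Oct4GIP and 219 CPM in primed 129/MSM, 213, 205, 173 and 158 CPM in early reverted, 105 to 224 CPM with a median of 137 CPM in late reverted and 139 CPM in naive cells. The late libraries other than A769662 d16+10p, which had 224 CPM, were below both primed ones, and the change of -0.54 (SE 0.27, adjusted p = 0.129) was not called. Without that library it was called, at -0.67, and it was called in neither line on its own (-0.40, SE 0.37, in Oct4GIP and -0.85, SE 0.42, in 129/MSM). In the cultures Mdm2 was 100.3 (Basal), 108 (2iL), 165 (AICAR) and 235 CPM (AICAR+LIF) at d8, followed at d16 by 76.9, 63.8, 74.3 and 104 CPM. Each treatment was lower at d16 (log2 fold change -0.86, SE 0.22, adjusted p = 0.0208), a call lost without 2iL d8 (-0.89), AICAR+LIF d16 (-0.85), AICAR d8 and AICAR+LIF d8 together (-0.50) or a covariate (-0.93), and after thinning (-0.80). The cultures were below primed cells by a log2 fold change of -0.96 (SE 0.26, adjusted p = 0.00708), and the reverted cells above the cultures by 0.60 (SE 0.17, adjusted p = 0.00319), with overlap in both.

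Other genes of the same pathways were counted as lists in the comparison of late reverted with primed cells, where 16.7% of all genes were called higher and 19.9% lower. Of 7 kinases and activators of G1, Cdk2 (log2 fold change 1.04) and Cdc25a (0.97) were higher and Cdk6 (-1.38) was lower, with a list median of 0.24. Cdk6 was 54.0 to 170 CPM in primed and 34.0 to 50.6 CPM in late reverted cells, while Cdk4 (0.24) was not called. Of 5 other CDK inhibitors 0 were higher and 3 lower: Cdkn1c (-3.48), Cdkn2b (-2.01) and Cdkn3 (-0.82). In each of them only 1 primed library lay above all the late reverted ones. Among primed cells Cdkn1c was 24.3 CPM in 129/MSM but 2.57 CPM in Oct4GIP, against 0 to 2.68 CPM in late reverted cells. Cdkn2b was 29.1 CPM in 129/MSM but 1.10 CPM in Oct4GIP, the latter below the late reverted 1.77 to 6.78 CPM. Cdkn3 was 32.7 CPM in Oct4GIP but 10.1 CPM in 129/MSM, against 9.41 to 14.3 CPM. Of 13 pocket protein and E2F genes, E2f1 was higher (1.77) and Rb1 (-1.57) and E2f5 (-0.80) were lower. Rb1, which encodes the retinoblastoma protein, was 38.5 and 80.2 CPM in the primed libraries and 13.5 to 34.9 CPM in late reverted cells. Of 6 genes of cyclin E and p27 turnover, Fbxo5 (0.66) and Fbxw7 (0.60) were higher. Of 17 genes of S phase to mitosis, 4 were higher, Mybl2 (3.89), Mcm5 (1.34), Pcna (1.26) and Mcm2 (1.02), and 0 lower.

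In the same comparison the p53 regulators that were called were all higher, and most of the p53 targets that were called were lower. Of 14 regulators 7 were higher and 0 lower, with a median of 0.89 against -0.01 over all genes, led by Tbx3 (5.98), Bmi1 (1.57), Usp7 (1.34) and Atm (1.15). Mdm4, a relative of Mdm2 that also restrains p53, rose by 0.81 and went from 172 and 204 CPM in primed to 267 to 420 CPM in late reverted cells. The list mixes such genes with others, among them the p53 relatives Trp63 and Trp73. A shared direction in it therefore gives no direction for p53 itself. Of 31 p53 targets 1 was higher and 12 were lower, with a median of -0.67. The lower targets with the largest changes were Perp (-4.35), Fas (-3.10), Dcxr (-2.96) and Bbc3 (-2.25). Thus Trp53 RNA was higher in late reverted cells while 12 of 31 target RNAs were lower, against 19.9% of all genes. The members Cdkn1a (0.17) and Mdm2 (-0.54), also p53 targets, were not called. These counts rest on 2 primed libraries of different lines and were not repeated with either left out. Of 12 fibroblast markers 9 were lower here and 1 (Fn1, 1.92) was higher. Their sum was 465 CPM in primed Oct4GIP, 2152 CPM in primed 129/MSM and 2586 to 3290 CPM in late reverted cells.

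From early to late reverted cells, where 4.75% of all genes were called higher and 4.61% lower, few genes of the lists were called. The median was -0.43 for the p53 targets and 0.71 for the other CDK inhibitors, against 0.00 over all genes. Of 12 fibroblast markers 1 fell and 0 rose, with a median of -0.51, and their part in these changes was not tested. Among the other CDK inhibitors Cdkn1c fell (-2.40), 2 of the p53 targets fell (Ei24, -0.93, and Pidd1, -0.93), and 0 genes were called by edgeR among the G1 kinases, the pocket proteins and E2F factors, the turnover genes, the p53 regulators and the S-phase to mitosis list. Reverted cells compared with cultures differed broadly, with 36.7% of all genes called higher and 39.5% lower: all 7 G1 kinases and activators and all 17 genes of S phase to mitosis were higher, with medians of 1.01 and 1.74 against -0.08 over all genes. The largest changes were those of Mybl2 (5.14), Mcm5 (2.76), Ccnb1 (2.18) and Cdc20 (2.06) among the latter. Of 6 turnover genes 5 were higher, and of 13 pocket protein and E2F genes 7 were higher and 4 lower, Rb1 (-2.11) among them. Of 14 p53 regulators 11 were higher and 1 lower, while of 31 targets 7 were higher and 7 lower, smaller shares than over all genes. Of 5 other CDK inhibitors 1 was higher (Cdkn3, 0.63) and 3 lower, Cdkn2b (-3.75), Cdkn2c (-3.32) and Cdkn2d (-0.50).

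In the cultures compared with primed cells 15 of 17 genes of S phase to mitosis were lower, with a median of -1.35, beside 4 of 7 G1 kinases, 8 of 14 p53 regulators and 12 of 31 p53 targets, where 19.4% of all genes were called lower and 18.1% higher. In the same comparison 1 p53 regulator (Bmi1, 2.37), 1 other CDK inhibitor (Cdkn2c, 5.46) and Rbl2 (1.90) were higher, 2 inhibitors (Cdkn1c and Cdkn3), 2 E2F genes (E2f8 and E2f4) and 2 turnover genes (Fbxo5 and Cks1b) were lower, and 7 of 12 fibroblast and 5 of 6 neural markers were higher. Cdkn2c had at most 1 count in a primed library, which is below the floor of 3 counts, so the size of its change is not measured.

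Within the cultures the question was how libraries with AICAR differed from those without it during the first 16 days. The latter included 2iL, with its MEK and GSK3 inhibitors, so the comparison was not with Basal medium alone. Ccnd2 was higher in each AICAR library than in either library without AICAR of the same day, by a log2 fold change of 1.56 (SE 0.20, adjusted p = 0.00812). The values of 9 other members were positive and not called, from 0.25 (Trp53) to 1.43 (Ccnd1, adjusted p = 0.0720). Of 31 p53 targets 7 were higher with AICAR and 0 lower (background 3.39% and 5.51%), with a median of 0.63 against -0.03 over all genes, led by Perp (3.39), Pmaip1 (2.59), Plk2 (1.68) and Ccng1 (1.41). Of 13 p53 regulators tested 5 were higher and 0 lower, led by Trp63 (5.77) and Trp73 (2.27), relatives of p53, and Chek1 (1.40). Trp63 had 0 to 16 counts at d8 and 0 to 9 counts at d16, so its value is fitted over libraries without counts and its size is not measured. The pluripotency genes Pou5f1 (4.17) and Nanog (3.28) and 4 of 6 primed markers were also higher with AICAR, as were 3 of 12 fibroblast markers (Postn, Fn1 and Pdgfrb) and 2 of 5 muscle markers tested. The S-phase to mitosis list had 2 of 17 genes higher (Bub1, 1.19, and Mcm5, 0.93), the other lists at most 1 in either direction. AICAR d8 and AICAR+LIF d8 were the shallowest libraries of the series, and without them Ccnd2 had a value of 1.62 and was not called, nor was it without a term for the day (1.56). The calls over all genes moved as well: 1377 genes were called for AICAR with all 8 cultures, 0 without those libraries, 14 without a term for the day and 173 to 2618 when 1 library was left out, and the list counts above are those of the fit of all 8. No test found the effect of AICAR on a member to differ between d8 and d16 (edgeR interaction, added after the data were seen, 0 of 10 members and 21 of 15473 genes called, and 1 member, Cdkn1b, at an unadjusted p under 0.05).

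With the day, 10 of 17 genes of S phase to mitosis fell and 0 rose (median -1.05 against 0.00 over all genes), as did 14 of 31 p53 targets and 8 of 13 p53 regulators, while 2 targets rose, Pltp (2.09) the more. Over all genes 17.5% rose and 12.7% fell. The list counts are those of the fit of all 8 cultures, which called 4673 genes, against 2232 to 4073 when 1 library was left out. Of the genes called 58% rose, against 47.4% without normalization factors and 66.9% without a filter. The targets that fell most were Plk3 (-2.71), Eda2r (-1.79) and Pidd1 (-1.66). Of the G1 kinases Cdk4 (-0.63) and Cdc25a (-0.56) fell, and of the pocket protein and E2F genes 6 fell and Rbl2 (0.82) rose. Of the turnover genes 2 fell (Fbxo5 and Cks1b), and Cdkn1c (2.33) rose. Over the same time 6 of 12 fibroblast markers rose and 4 of 6 neural markers fell.

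For each member the genes with the most similar profile were found by Pearson's r of log2 CPM over the 22 libraries among 11049 genes, as a description. The libraries fall into states, so r may reflect differences between states, which was not tested. Trp53 was most like Cacybp (r = 0.99), Smyd5 (0.986) and Rfc5 (0.986), Ccnd2 like Gria3 (0.98), Pik3ip1 (0.965) and Cdk14 (0.964), and Ccne1 like Rpl7l1 (0.98), Hspd1 (0.97) and Zcchc10 (0.966). Cdkn1b was most like Sfxn3 (0.943), Cdr2l (0.93) and Atp6v1g1 (0.928). Mdm2 was most like Trp53inp1 (0.915), Ajuba (0.88) and Aen (0.864), of which Trp53inp1 and Aen are p53 targets. Cdkn1a had lower values, with Eda2r (0.751), Ppp4r2 (0.75) and Apaf1 (0.745), and Eda2r and Apaf1 are also p53 targets. The nearest genes were Cdc27 (0.888) for Ccnd1, Stt3a (0.82) for Ccnd3, Gm5898 (0.843) for Ccne2 and Frmd6 (0.817) for Cdkn2a.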

How the data were processed

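The authors sequenced polyA RNA and aligned the reads to Ensembl transcripts with Bowtie2 2.2.5, and the deposited values are unnormalized read counts per gene (34489 genes) and per transcript (112869 transcripts) in 22 libraries. A deposited table of detected genes was not used. Counts were scaled by TMM, filtered by filterByExpr and tested with edgeR 4.0.16 quasi-likelihood fits in R 4.3.3, with Benjamini-Hochberg adjustment over all genes tested. The first 4 comparisons came from 1 fit of all libraries in 6 groups. The AICAR comparison, with a term for the day, and the comparison of days, with a term for AICAR, came from a fit of the 8 culture libraries. The scripts were tested on simulated counts first. The 10 members and the lists were chosen with earlier results of these data known. Of each list, at most 4 called genes per comparison are named, those with the largest changes, beside Cdk2, Cdk4, Cdk6, Rb1 and Mdm4. The symbols Skp1, Tp53i11 and Hbb-bt matched no gene. The fits within a line and the interaction of day and AICAR were chosen after the data were seen. Alternatives were DESeq2 1.42.0, limma 3.58.1 (voom), total-count scaling, no filter, a filter of at least 10 counts in every library, thinning to the smallest total, other terms, and sets of libraries left out. A first method of thinning was replaced by binomial thinning after its results had been seen, and the values given are from the replacement. Figures were drawn with matplotlib 3.10.9 in Python 3.11.15.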

Additional observations from a re-analysis of the deposited data

Results flagged for a closer look

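A test for a library far from the others of its group was run on 40 pairs of a member and a group, at a level at which chance alone flags about 1 group in 20. Ccne2 was 8.785 CPM in AICAR+LIF d16+3p, the lowest of the early reverted libraries, with the nearest at 19.82 CPM. Cdkn1a was 367.3 CPM in A769662 d16+10p, the highest of the late reverted libraries, with the nearest at 263.8 CPM. Cdkn2a was 49.44 CPM in AICAR+LIF d8, the highest of the d8 cultures, with the nearest at 15.15 CPM. That value came from 25 counts in the library of lowest total. The change of Cdkn2a from primed to late reverted cells had a fitted log2 value 9.293 higher in Oct4GIP than in 129/MSM. The fit called this difference, but it rests on 1 primed library of each line, that of Oct4GIP with 0 counts. Its size therefore has no upper bound in these data, and the call does not show a difference between the lines.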

How the results depend on the processing

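Over the alternatives, 1013 of 1156 log2 fold changes of members kept their direction and their side of the threshold, 57 lost their call, 45 gained one and 41 changed sign, and unless stated the cause was not tested. For late reverted against primed cells, Ccne2 was -0.018 without normalization factors and -0.36 after thinning. With at least 10 counts in every library, which leaves fewer genes to test, 3 members and 2880 genes were called, and after thinning, 3562 genes. For late against early reverted cells, 1 member and 856 genes were called with at least 10 counts, 618 genes after thinning (Ccnd2 0.12, and Cdkn2a 2.10, no longer called), and 4 members and 3002 genes with only the groups compared in the fit. For cultures against primed cells, Ccnd1, near 0 in the fit reported, was 0.079 (DESeq2), 0.10 (voom), 0.037 (at least 10 counts), 0.13 (thinned) and 1.61 (Oct4GIP only). There Ccnd2 was -0.002139 (voom) and -0.21 (without the 3 libraries of lowest total), and with Oct4GIP only Ccne1 was 0.093, Ccne2 1.66 and Cdkn1b -0.038. In that comparison 3477 genes were called with at least 10 counts, 3888 after thinning, and 2 members and 4595 genes with only the groups compared. For reverted cells against cultures, 3 members and 5907 genes were called with at least 10 counts, Cdkn1a was 0.040 without the 3 libraries of lowest total, and Ccne2 lost its call after thinning (0.84). For AICAR, 4 members and 2232 genes were called by DESeq2, 2 members by voom (Cdkn2a -0.032), 2 members without normalization factors, 5 members and 3143 genes without a filter, 792 genes with at least 10 counts, and 3 members and 866 genes after thinning. Without the 3 libraries of lowest total, which in the fits of the cultures removes only AICAR d8 and AICAR+LIF d8, edgeR called 0 members (5 at an unadjusted p under 0.05) and 0 genes (3007 unadjusted) for AICAR, and Cdkn2a was -0.47. Without a term for the day edgeR called 0 members (1 unadjusted) and 14 genes for AICAR, and Ccnd2 (1.56) lost its call. For d16 against d8, Cdkn2a was 0.080 (voom), 0.095 (at least 10 counts) and 0.80 (without the 3 libraries of lowest total), and Cdkn1b was 0.006663 (no filter), 0.074 (at least 10 counts), 0.14 (thinned) and 0.037 (no covariate). In that comparison of days 5 members were called without normalization factors, 2871 genes with at least 10 counts, 2551 genes after thinning, and 0 members (3 unadjusted, edgeR) and 2771 genes without a covariate, and with the 4 treatments as a block Ccnd1 (-1.52) lost its call. Thinning also ended the calls of Ccnd1 (-1.14) and Mdm2 (-0.80) for the day and of Ccne1 (-0.89) for cultures against primed cells. Calls were gained for AICAR by Ccnd1 (DESeq2 1.44, no filter 1.40), Ccnd3 (0.59 to 0.73 in 6 settings) and Mdm2 (no filter 0.65), for the day by Trp53 (DESeq2 -0.46, no normalization factors -0.59, without the 3 libraries of lowest total -0.68), for late against early reverted cells by Ccne1 (thinned -0.78, only the groups compared -0.51), and for reverted cells against cultures by Ccnd1 (0.77 to 0.90 in 4 settings) and Ccnd3 (0.30 to 0.45 in 5 settings). Leaving out 1 library at a time gave these ranges. Late reverted against primed cells: 3 to 7 members, 4462 to 6766 genes, Ccnd1 -0.045 to 2.36, Ccnd3 0.60 to 0.93, Ccne1 0.66 to 2.70, Ccne2 -0.77 to 2.60, Cdkn1b -1.29 to -0.80 and Cdkn2a -0.042 to 8.92. Late against early reverted cells: 1 to 2 members, 939 to 1847 genes and Cdkn2a 2.33 to 2.72. Cultures against primed cells: 3 to 4 members, 4115 to 7260 genes, Ccnd1 -0.75 to 1.61, Ccne1 -1.90 to 0.094, Ccne2 -1.67 to 1.66, Cdkn1b -0.037 to 0.49 and Cdkn2a -0.27 to 8.66. The highest Cdkn2a values against primed cells, 8.92 and 8.66, came from fits whose only primed library had 0 counts. Reverted cells against cultures: 6 to 8 members and 13748 to 14194 genes. AICAR: 1 to 2 members, 173 to 2618 genes, Ccnd2 1.43 to 1.70 (called each time) and Cdkn2a -0.18 to 0.84. The day: 0 to 3 members, 2232 to 4073 genes, Ccnd1 -1.80 to -1.15, Mdm2 -0.97 to -0.65, Cdkn1b -0.17 to 0.15 and Cdkn2a -0.40 to 0.53. The median log2 fold change over all genes lay over 0.1 from 0 without normalization factors (-0.11 for late reverted against primed cells, -0.111 for reverted cells against cultures and -0.113 for the day), with DESeq2 (0.124 for cultures against primed cells and -0.161 for reverted cells against cultures), with voom (0.112 for cultures against primed cells), after thinning (-0.112 for reverted cells against cultures) and without a filter (-0.127 for AICAR and 0.185 for the day). It did so too for cultures against primed cells with Oct4GIP only (0.121) and without primed 129/MSM (0.121), and for reverted cells against cultures without 1 of the early reverted libraries (-0.135 to -0.124), without metformin+LIF d16+10p (-0.124) and without 2iL d16 (-0.118).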

Other observations

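The late reverted libraries came from different activators, each sequenced once and not tested against each other. After metformin+LIF, Cdkn1b was 33.66 CPM and Ccnd3 152.8 CPM, the lowest of the 7, and Ccnd2 was 4.468 CPM and Trp53 447.4 CPM, the highest. After A769662, Ccnd1 was 212.9 CPM and Mdm2 224 CPM, the highest of the 7, and Ccne2 was 9.86 CPM, the lowest. After AICAR+LIF, Cdkn2a was 32.45 CPM in Oct4GIP, the highest, and 27.44 CPM in 129/MSM. In 129/MSM after AICAR alone it was 9.802 CPM, the lowest.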
